A study of Danio rerio with 6 samples.

Results

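The S phase genes *rrm2* and *dtl* were described at the level of 2 Ensembl transcripts, ENSDART00000112155 of *rrm2* (ENSDARG00000078069) and ENSDART00000034098 of *dtl* (ENSDARG00000023002), out of 54869 transcripts counted. They were picked by gene name from the authors' lists of differentially expressed transcripts and followed by identifier into the count table. No other transcript in those lists carries either name. The members were thus selected on the difference between the same 6 samples that is shown here, so their levels and fold changes are a description and carry no test. Transcripts outside the lists carry no name, so further transcripts of either gene could be in the count table unseen. All values below are of the single transcripts and need not hold for the whole gene.

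RNA was taken from whole zebrafish at 4 days post fertilization (dpf), with 3 WT and 3 flt1ka601 samples. The WT samples were of the AB strain and carried Tg(kdrl:eGFP)s843, which marks endothelial cells with EGFP under the *kdrl* promoter. The mutant samples were homozygous for flt1ka601 and carried the same reporter, and the labels name no strain for them. Strain and genotype therefore cannot be told apart. The allele is a CRISPR/Cas frameshift meant to remove the soluble and the membrane-bound form of Flt1, a decoy receptor for Vegf, and it is the single mutant allele of the series. How many larvae were pooled for a sample, and whether samples came from separate clutches, is not given in the sources used here, so the spread between samples may be technical in part. The transcripts of *flt1* carry no name in the files, and the targeted gene could not be used to check the labels. The paper reports no sign of decay of the mutant mRNA, so its level might not have separated the genotypes in any case.

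DNA replication needs a supply of deoxynucleotides and a block on firing the same origin again. Rrm2 is the small, radical-bearing subunit of ribonucleotide reductase, the enzyme that turns ribonucleotides into deoxyribonucleotides, and in mammalian cells its level rises in S phase and falls before mitosis. Dtl, known in other animals as Cdt2 and named after the *Drosophila* gene *denticleless*, is the substrate receptor of the CRL4 ubiquitin ligase. In human cells it directs the licensing factor Cdt1, the Cdk inhibitor p21 and the histone methyltransferase Set8 to degradation at PCNA on replicating chromatin. Transcripts of both genes are commonly used as marks of cells in S phase, and zebrafish larvae at this age keep dividing cells in growth zones of the retina and brain and in the gut. In RNA from whole larvae, more cells in S phase and more RNA per such cell cannot be told apart.

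Reads counted on transcripts ranged from 10655504 to 14936523 per sample. The average number of reads that the paper gives as assigned to genes is above this range, and the reason for the gap was not worked out. WT replicate 1 stood apart in composition, with 36.9% of its reads on its 5 most counted transcripts against 27.0% to 28.8% in the other samples. On the second principal component of log2 CPM (counts scaled per sample by TMM for library size and composition), which held 25.4% of the variance, WT replicate 3 lay at -46.4 and the others between -1.95 and 24.4. Fold changes of the members are therefore also given without each of these samples.

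Both transcripts were at a low to moderate level in WT and higher in every mutant sample. The *rrm2* transcript had 58, 64 and 81 reads in WT replicates 1, 2 and 3. It had 462, 273 and 434 reads in flt1ka601 replicates 1, 2 and 3. As CPM these were 4.46, 5.61 and 7.66 in WT and 33.1, 24.6 and 37.8 in mutants. The genotypes did not overlap, and the lowest mutant, replicate 2, was 3.21-fold above the highest WT sample, replicate 3.

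The mean level of *rrm2* was 5.91 ± 1.62 CPM in WT and 31.8 ± 6.71 CPM in mutants (SD, n = 3 each). The fit put the log2 fold change at 2.44 ± 0.20 (standard error), with a 95% interval from 2.05 to 2.84, a 5.44-fold difference. In the order of levels among the 21029 transcripts that passed the filter on low counts, *rrm2* lay at percentiles 33.8 to 46.2 in WT samples and 72.0 to 80.8 in mutants. By size of the fold change it stood at place 25 among the 1145 transcripts called higher in mutants.

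The *dtl* transcript had 69, 55 and 48 reads in WT replicates 1, 2 and 3. It had 165, 120 and 110 reads in flt1ka601 replicates 1, 2 and 3. As CPM these were 5.31, 4.82 and 4.54 in WT and 11.8, 10.8 and 9.58 in mutants. Here too the genotypes did not overlap, with the lowest mutant, replicate 3, 1.81-fold above the highest WT sample, replicate 1.

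The mean level of *dtl* was 4.89 ± 0.387 CPM in WT and 10.7 ± 1.12 CPM in mutants (SD, n = 3 each). The fit put its log2 fold change at 1.13 ± 0.14 (standard error), with a 95% interval from 0.85 to 1.41, a 2.19-fold difference. That interval includes the 2-fold change on which the authors' lists were thresholded. In the order of levels it lay at percentiles 34.7 to 37.5 in WT samples and 50.6 to 55.3 in mutants. Its fold change had place 191 among the 1145 transcripts called higher.

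**Figure D1:**
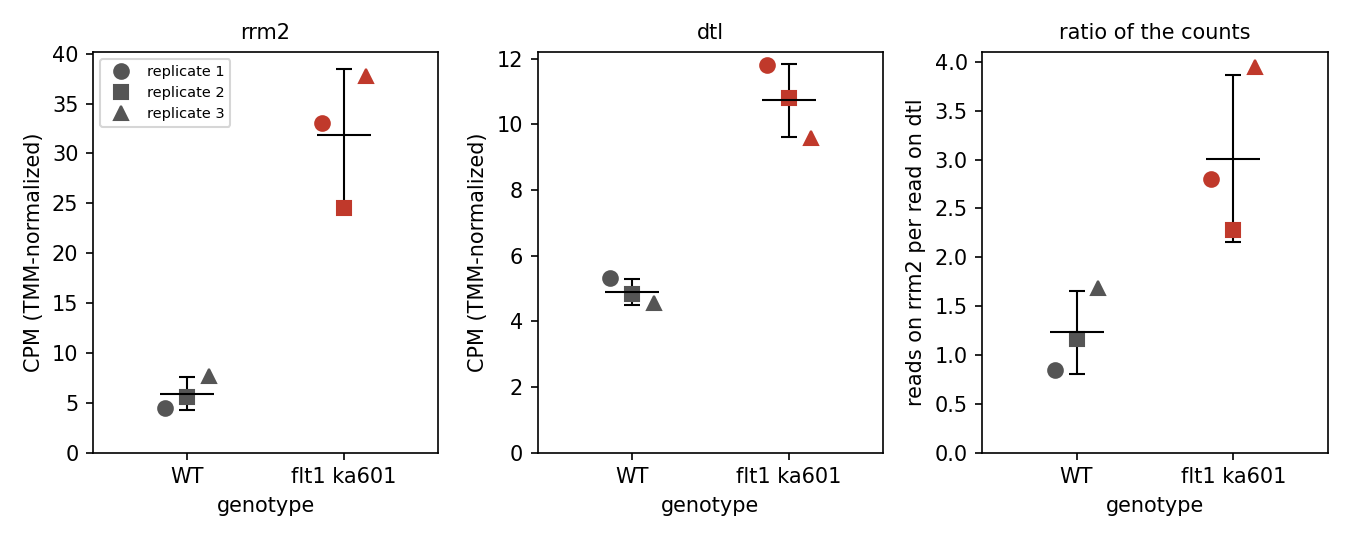
Level of *rrm2* and *dtl* in CPM (TMM-normalized) and the number of reads on *rrm2* per read on *dtl*, by genotype; points are samples with their replicate number, horizontal bars are means and error bars are SD (n = 3 each). Mutants lie above WT in all 3 panels, and the samples of a genotype are more widely spread for *rrm2*, at 4.46 to 7.66 CPM in WT, than for *dtl*, at 4.54 to 5.31 CPM.

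Both members are among the transcripts called higher in mutants by the edgeR quasi-likelihood fit, at a Benjamini-Hochberg adjusted p below 0.05 over all transcripts tested, as were 5.44% of those tested. Both had every mutant above every WT sample, as did 16.8% of those tested. Since the authors' lists hold only transcripts that differ in this contrast, the members could hardly have come out otherwise.

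The lists keep changes of at least 2-fold. In the authors' list made with DESeq, the lowest ratio of mutant to WT means among the 204 transcripts higher in mutants was 2. Just outside it, the highest ratio below 2 among transcripts called here was 1.99. The authors' mean normalized counts were 57.7 in WT and 126 in mutants for *dtl*, a ratio of 2.18 and the 59th lowest of the 204. They were 69.9 and 374 for *rrm2*, a ratio of 5.35 and the 176th lowest.

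The authors' FPKM values (from Cuffdiff, scaled for transcript length and depth, with a single value for a genotype and no spread) also account for length. For *rrm2* they were 2.18 in WT and 11.4 in mutants. For *dtl* they were 0.941 in WT and 1.98 in mutants. On this scale the level of *rrm2* was 2.32-fold that of *dtl* in WT and 5.73-fold in mutants. The ratio of mutant to WT was 5.21 for *rrm2* and 2.11 for *dtl*, next to 5.35 and 2.18 from the authors' means of normalized counts.

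Of the 2 fold changes, that of *rrm2* was the larger. There were 0.841, 1.16 and 1.69 reads on *rrm2* per read on *dtl* in WT replicates 1, 2 and 3, and 2.80, 2.28 and 3.95 in flt1ka601 replicates 1, 2 and 3. The scaling of samples cancels in this ratio. It did not overlap between genotypes, with means of 1.23 ± 0.427 in WT and 3.01 ± 0.854 in mutants (SD, n = 3 each). The fitted log2 fold change of *rrm2* was larger than that of *dtl* by 1.31. Both values come from the contrast that chose the members, so this difference too was not tested.

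The spread among samples of a genotype enters the p-values behind the authors' lists, so it too had a part in choosing the members and is given as a description. For *rrm2* the coefficient of variation was 27.5% in WT and 21.1% in mutants, where counting error alone gives 12.2% and 5.17%. For *dtl* it was 7.92% in WT and 10.4% in mutants, next to a counting error of 13.3% and 8.82%. The spread of *dtl* was thus about that of counting, and that of *rrm2* was above it.

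On the log2 scale the SD within genotypes was 0.35 for *rrm2* and 0.13 for *dtl*. Beside it, the median over the 10689 tested transcripts with a mean of 50 to 500 reads, most of them not in the lists, was 0.15. Exact Poisson 95% intervals of the single counts, which cover counting error only, ran from 44.0 to 101 reads over the WT samples for *rrm2* and from 242 to 506 over the mutants. For *dtl* they ran from 35.4 to 87.3 reads in WT and from 90.4 to 192 in mutants.

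Within a genotype the samples fell in a different order for the 2 genes. In WT, replicate 3 was the highest for *rrm2* and the lowest for *dtl*, and replicate 1 the reverse. Among mutants, replicate 3 was again the highest for *rrm2* and the lowest for *dtl*. The correlation of their deviations from the genotype means was r = -0.64 over the 6 samples and -0.29 when samples were scaled by total counts. Of all tested transcripts 15.3% had a lower r with *rrm2*, around a median of 0.00047. The points share their libraries and their scaling, and the deviations of *dtl* are of the size of counting error.

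The fold changes did not rest on a single sample. Since the members were listed for their difference in these same samples, a rise that outlasts the loss of 1 was nearly fixed in advance. Over the 6 fits that each dropped a sample, the log2 fold change lay between 2.26 and 2.67 for *rrm2* and between 1.05 and 1.2 for *dtl*. Without WT replicate 1 the values were 2.26 for *rrm2* and 1.2 for *dtl*, and without WT replicate 3 they were 2.67 and 1.08. Scaling by total counts, which moves the median log2 fold change of all tested transcripts by 0.13, gave 2.56 for *rrm2* and 1.26 for *dtl*.

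**Figure D2:**
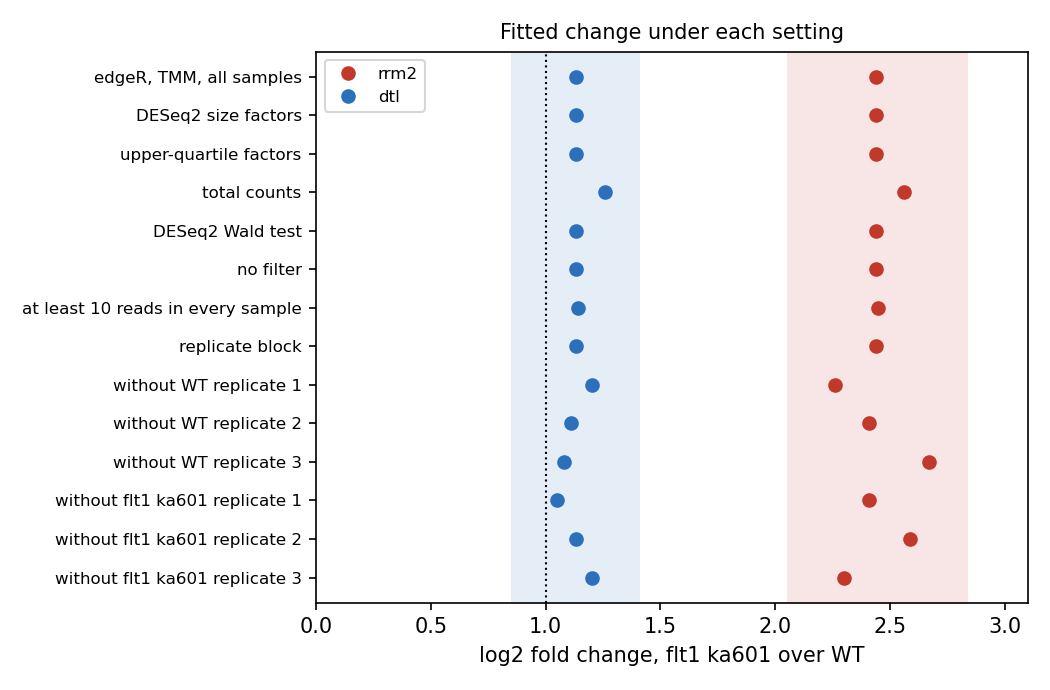
Fitted log2 fold change of *rrm2* and *dtl*, flt1ka601 over WT (x axis), for each way of scaling, testing, filtering or leaving out a sample (y axis); shaded bands are the 95% intervals of the fit with all samples and the dotted line is a 2-fold change. All values of *rrm2* lie between 2.26 and 2.67 and all values of *dtl* between 1.05 and 1.26, inside the bands.

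Other genes of S phase were looked up in 4 lists of 157 names in all, chosen with earlier results of these data known. The lists covered deoxynucleotide synthesis, the CRL4-Cdt2 ligase with its substrates, the replication machinery, and genes switched on at the transition from G1 to S. Transcripts have a name in the files only where the authors listed them as changed by DESeq (359) or Cuffdiff (158), which holds for 424 of them. The paper counted a gene as differentially expressed only where both methods found it, and here a name from either list was used. The deposited lists named 6 of the 157, and the others, among them the large ribonucleotide reductase subunit, PCNA, Cdt1 and the Mcm helicase subunits, were not analysed here. Besides *rrm2* and *dtl* these were *gins3*, *rpa3*, *e2f7* and *brca2*. All 6 were called higher in mutants, beside 5.44% of all tested transcripts and 202 of the 387 named and tested. All 6 also had every mutant above every WT sample, beside 16.8% of all tested transcripts and 213 of the 387. A transcript with no change, or with one under the 2-fold cut of the lists, could not have been named. Of the 1145 transcripts called higher here, 264 were fitted at 2-fold or more. The counts of listed genes therefore say nothing about S phase genes as a whole, and those without a name need not be unchanged.

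Of the replication machinery, *gins3* encodes a subunit of the GINS complex, which is part of the helicase that opens DNA at the fork. WT samples held 52, 40 and 35 of its reads and mutants 116, 95 and 71, for a log2 fold change of 1.09 ± 0.18 (standard error, as in the values that follow). The gene *rpa3* encodes the smallest subunit of replication protein A, which covers single-stranded DNA. Its transcript had 52, 51 and 40 reads in WT and 118, 99 and 96 in mutants, for a log2 fold change of 1.07 ± 0.14. Their fold changes were close to that of *dtl* and under that of *rrm2*, whose interval starts at 2.05. Those of *gins3*, *rpa3* and *dtl* all lay just above the 2-fold cut that the lists set for carrying a name. Nothing is therefore read from their closeness.

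The transcription factor gene *e2f7*, a repressor of E2F target genes in mammals and itself such a target, had 16, 13 and 9 reads in WT and 44, 31 and 33 in mutants. Its log2 fold change was 1.43 ± 0.25. The gene *brca2*, which acts in the repair of DNA breaks, had 235, 279 and 279 reads in WT and 699, 540 and 489 in mutants, for a log2 fold change of 1.04 ± 0.13. The 4 genes besides the members had a median log2 fold change of 1.08, next to 1.04 over all 387 named transcripts that were tested and -0.0051 over all tested transcripts. The lists keep only changes of at least 2-fold, so the 4 could hardly have come out far below that cut. The 387 hold 202 called higher and 146 called lower, so their median is not the size of a typical rise.

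**Figure D3:**
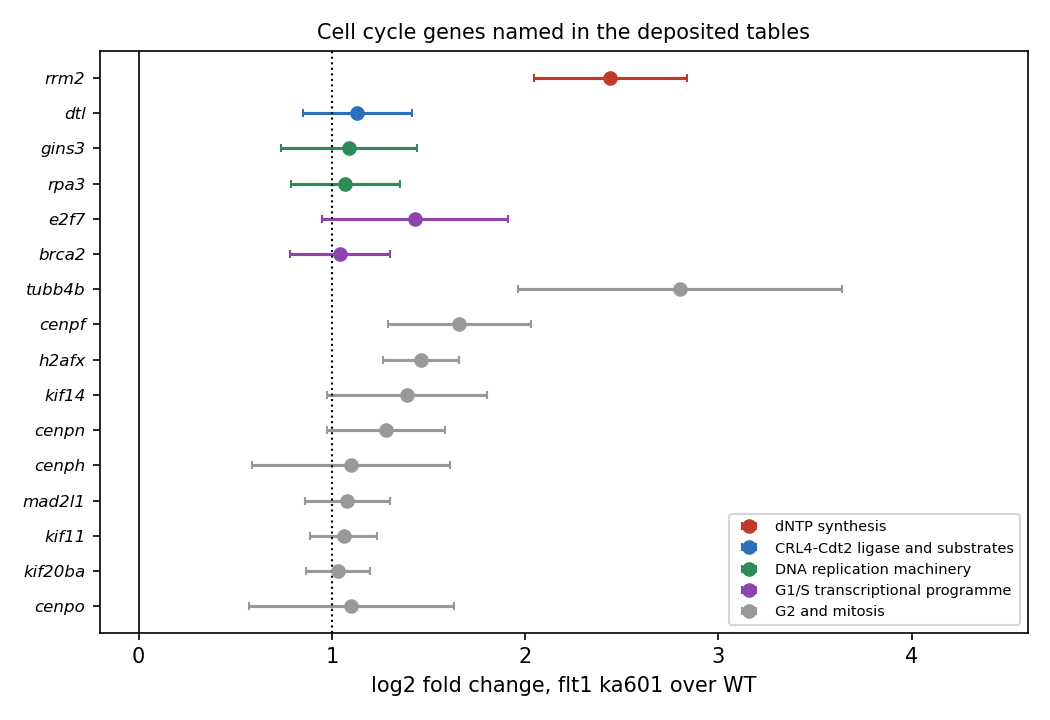
Log2 fold change, flt1ka601 over WT (x axis), of the listed cell cycle genes that the deposited lists name (y axis), coloured by list; bars are 95% intervals from the standard error and the dotted line is a 2-fold change. Of the S phase genes *rrm2* stands highest at 2.44 and the other 5 lie between 1.04 and 1.43.

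The summed level of *gins3*, *rpa3*, *e2f7* and *brca2* ranged from 27.3 to 34.3 CPM in WT and from 60.0 to 69.9 CPM in mutants. Most of this sum was *brca2*, with means of 23.0 CPM in WT and 47.1 CPM in mutants. In flt1ka601 replicate 2, the mutant sample with the least *rrm2*, the sum was 68.8 CPM, within the range of the other mutants. Replicate 3, with the most *rrm2*, had the lowest sum of the mutants.

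For genes of G2 and mitosis, the deposited lists named 10 of 88 names looked up. All 10 were called higher in mutants, beside 5.44% of all tested transcripts and 202 of the 387 named and tested, with log2 fold changes between 1.03 and 2.80. Here too, and for the groups that follow, a gene that did not pass the cuts of the authors' lists carries no name. The counts thus say nothing about a group as a whole. They include *kif11*, which encodes a motor that pushes spindle poles apart, at 1.06 ± 0.089, and *cenpf*, a kinetochore gene, at 1.66 ± 0.19. Their summed level was 88.7 to 97.7 CPM in WT and 202 to 218 CPM in mutants. The highest of the 10, *tubb4b* at 2.80 ± 0.43, rested on 5, 7 and 1 reads in WT, and the 9 others lay under *rrm2*.

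Histone genes whose mRNA is made during S phase were looked up after the names in the lists had been seen. The 5 transcripts named as histone H4 were all called higher, beside 5.44% of all tested transcripts and 202 of the 387 named and tested, with log2 fold changes between 1.04 and 2.30. HIST1H4K was the highest of them, with 69, 90 and 110 reads in WT and 545, 430 and 428 in mutants, and its log2 fold change of 2.30 ± 0.18 was near that of *rrm2*. Of 5 transcripts named H2AFY, in mammals the name of a variant H2A that is not tied to S phase, 4 were called higher. The exception, H2AFY (13 of 16), had 8, 3 and 173 reads in WT and 350, 341 and 286 in mutants. Copies of histone genes are nearly identical, and reads that fit several positions were not counted, so the values of single copies are uncertain. The recombination gene *rad54l*, named after its values were seen, was at 1.14 ± 0.13.

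Markers of other cells were looked up in the same way. The 4 embryonic globin transcripts named in the lists, which mark red blood cells of the embryo and larva, were all called higher in mutants, beside the same 5.44% of all tested and 202 of 387 named transcripts. Their summed level was 251 to 279 CPM in WT and 637 to 976 CPM in mutants. Most of it was *hbbe1.1*, with means of 220 CPM in WT and 615 CPM in mutants. The 4 transcripts of digestive enzymes of the exocrine pancreas that were tested were lower in every mutant than in every WT sample. So were 3321 of the 21029 tested and 158 of the 387 named transcripts. Of the 4 enzymes 2, *cpa4* and *cel.2*, were called lower, beside 907 of all tested and 146 of the named transcripts. The separation of *amy2a* was thin, at 254 reads in WT replicate 3 and 255 in flt1ka601 replicate 3. The summed level of the 4 was 146 to 257 CPM in WT and 31.6 to 109 CPM in mutants. Another, *ela3l*, which was not tested, had 1 read in WT replicate 2 and 0 in the other samples. The part of either cell type in the levels of *rrm2* and *dtl* was not tested.

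**Figure D4:**
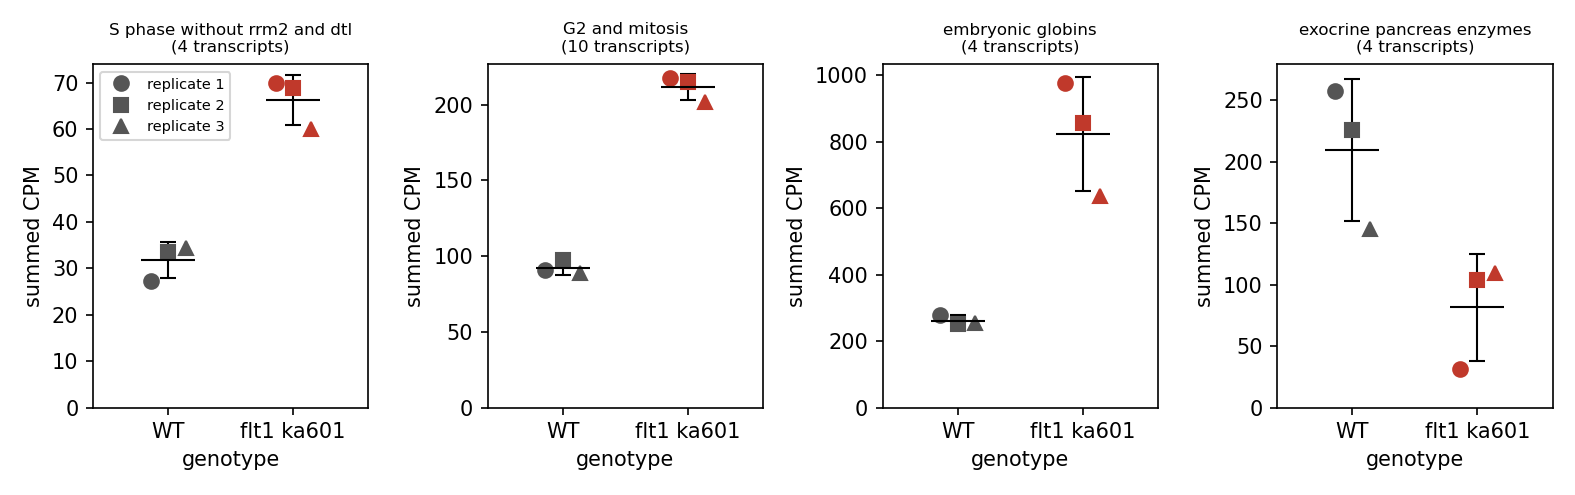
Summed level in CPM (TMM-normalized) of the S phase genes without *rrm2* and *dtl*, the G2 and mitosis genes, the embryonic globins and the exocrine pancreas enzymes named in the lists, by genotype; points are samples, horizontal bars are means and error bars are SD (n = 3 each). The first 3 groups are higher in all mutants and the enzymes are lower, at 31.6 to 109 CPM against 146 to 257 CPM.

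The named transcripts whose log2 CPM followed *rrm2* most closely over the 6 samples were *snrpd1*, a spliceosome gene (r = 0.997), si:ch73-7i4.2 (r = 0.988) and the protocadherin gene *pcdh2aa15* (r = 0.987). For *dtl* they were zgc:112234, the embryonic globin gene *hbbe1.2* and *esm1*, a gene of sprouting endothelium, each with r = 0.996. The difference between genotypes, for which all of these were listed, sets most of this likeness. By deviations from the genotype means the closest to *rrm2* were transcript ENSDART00000106090 (r = 0.983), *ppp1r3db* (r = 0.95) and si:ch73-7i4.2 (r = 0.946). The closest to *dtl* were the clotting factor gene *f9b* (r = 0.963), wu:fj08f03 (r = 0.959) and transcript ENSDART00000150390 (r = 0.954). Between genotypes *ppp1r3db* (log2 fold change -0.942) and ENSDART00000150390 (-1.78) were lower in mutants, opposite to the members, and the others were higher. Neither member nor another listed S phase gene was among the closest. All of these were picked as the highest r among the named transcripts, over only 6 samples. By deviations, 7 named transcripts had r above 0.9 with *rrm2*. Values picked in this way can be high without a relation, and none was tested.

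The name *rrm2* is not unique in zebrafish annotation. The RefSeq table of assembly GRCz12tu holds 0 genes with the symbol *rrm2* and gives it as an older name of 2 genes, *rrm2b* and *rrm2l*. Which of these 2 the transcript followed here belongs to could not be worked out. The background on Rrm2 in S phase therefore rests on the name the authors gave. In the Ensembl names 2 gene identifiers carry the symbol RRM2, one of them the identifier followed here. The second gene carries no name in the lists and was not analysed here, and reads shared between near-identical copies were not counted. The name *dtl* belongs to 1 gene in both sources.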

How the data were processed

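Total RNA of 3 WT and 3 flt1ka601 samples was depleted of ribosomal RNA and sequenced, with 2 technical replicates for each sample that the count table holds as 1 column. The paper itself names an Illumina TruSeq RNA kit and does not mention the depletion. Per the submitters' processing notes, reads were aligned with TopHat2 2.0.10 and Bowtie2 2.1.0 and counted with HTSeq 0.6.1. The paper names GRCz10 and the notes name Zv9 (danRer7), so no coordinates are given. The authors deposited raw counts per Ensembl transcript. Reads that fit several positions, or several transcripts (20.0% to 23.1% of reads placed once), enter no count, and 43.5% to 46.8% of reads placed once fell on no transcript. Alignments set aside as not unique, which are outside these percentages, numbered 30406517 to 52587271 per sample. They were more numerous than the counted reads in every sample and most numerous in WT replicate 1. The deposited DESeq list gives a mean signal per genotype (counts divided by size factors), and the deposited Cuffdiff list (Cufflinks 2.1.1) gives an FPKM value per genotype. Their columns of fold changes and p-values were not used.

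Counts were fitted in R 4.3.3 with edgeR 4.0.16 (filterByExpr, minimum count 10 and total 15, leaving 21029 transcripts; TMM; quasi-likelihood test of genotype over all 6 samples; Benjamini-Hochberg adjustment). The standard error was taken as the log2 fold change over the root of F, and it and the 95% intervals are approximate. Log2 CPM used a prior count of 2. All pairs of replicates differed by more than counting error (chi-square over its degrees of freedom 1.79 to 20.8). Group means recomputed from the counts matched the deposited means to within 1.1e-07%. The test was also run on simulated data, and the outcome is not reported here. Alternatives were other scalings, DESeq2 1.42.0, other filters, a block on replicate number, and dropping each sample.

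The members, lists and tests were chosen with earlier results of these data known. The genes named are the members, every other S phase list gene that the deposited lists name, and for each member the 3 named genes of closest pattern, plus examples from the other lists and those said to have been picked by their values.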

Additional observations from a re-analysis of the deposited data

How the results depend on the processing

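The log2 fold change of *rrm2* moved by less than the SD between replicates (0.35) under all 13 alternatives, and that of *dtl* (0.13) under 12. The exception was scaling by total counts, with 1.26 for *dtl*. That scaling gave 1829 transcripts higher and 373 lower in mutants, so that 83.1% of calls were higher against 55.8% with TMM, and a correlation of -0.29 between *rrm2* and *dtl* within genotypes. With each sample left out in turn, 422 to 1492 transcripts were called higher and 295 to 1297 lower, with the log2 fold change of *rrm2* exceeding that of *dtl* by 1.07 to 1.58. All 6 listed S phase genes were called higher in each of these fits and under the other scalings. Under those scalings 1135 to 1829 of the 21029 tested transcripts were called higher. The 6 carry names because the authors listed them for this contrast, so this outcome was nearly fixed in advance. DESeq2 called 832 higher and 693 lower.

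With the replicate block the log2 fold changes of *rrm2* and *dtl* were 2.44 and 1.13, and 1270 transcripts were called higher and 1082 lower. The main fit did not take the numbers as pairs. Deviations of same-numbered samples correlated at 0.0795, 0.0215 and 0.0642. In all 3 cases a sample correlated best with its own number. These correlations are small and depend on each other, since deviations are taken within a genotype of 3 samples. Whether the numbers mark pairs was not tested, and the design does not say so.

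At this depth a *dtl* transcript of 48 to 165 reads has a counting error about as large as its spread between samples. Only transcripts in the authors' lists carry names, so S phase genes without a change could not be seen.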
